A study of Mus musculus with 8 samples.

Results

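Proteasome subunits and activators were examined in testis RNA of mice with and without an intact Ctcfl gene. Members were the probe sets of the deposited level table whose gene symbol begins with Psma, Psmb, Psmc, Psmd or Psme followed by a number, with Psmc3ip, a meiotic recombination factor, left out. There were 91 such probe sets of 45101 in all, and they belonged to 44 genes of 22666 with a symbol. No member passed the test for a difference between mutant and control testes.

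The study hybridised biotin-labelled cRNA from whole testes of mice at postnatal day 23 to Affymetrix Mouse430_2 arrays, 8 in number. Replicates 3, 5 and 8 are labelled CTCFL mutant, and replicates 1, 2, 4, 6 and 7 are labelled wildtype and served as controls. The mutants are Ctcfl del/del, with the Ctcfl del allele on both chromosomes, a germline deletion made in mice by Cre from an allele targeted in embryonic stem cells, on a C57/Bl6 background. The study's text calls its control littermates heterozygous Ctcfl del/+, so that the arrays labelled wildtype may come from carriers of a mutant allele. CTCFL, also called BORIS, is a zinc finger protein of the male germ line related to the chromatin organiser CTCF. The labels do not tie arrays to separate animals, so p-values measure the spread between these samples only. Every animal was untreated as far as the labels say, and the level of Ctcfl itself was not analysed here, so that the labels have no check from the targeted gene.

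The proteasome is the barrel-shaped protease that degrades proteins marked with ubiquitin. Its 20S core is built from rings of alpha and beta subunits, of which Psmb5, Psmb6 and Psmb7 carry the catalytic sites, and the 19S cap of ATPases, base and lid subunits recognises, unfolds and feeds in the substrate. In cells exposed to interferon gamma the catalytic subunits are replaced by Psmb8, Psmb9 and Psmb10, and the PA28 activator of Psme1 and Psme2 is induced with them, while male germ cells have a core subunit of their own, Psma8, in place of Psma7, and rely on the activator PA200, encoded by Psme4.

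By these roles the genes fell into 31 constitutive genes with 67 probe sets, 3 immune subunits with 4, the 2 genes of PA28 alpha beta with 2, and 2 germ cell genes with 7. The remaining classified genes were the 19S assembly chaperones Psmd5, Psmd9 and Psmd10, the nuclear activator Psme3 (PA28 gamma) and the thymus catalytic subunit Psmb11, and the pseudogene Psme2b-ps was left unclassed. The constitutive genes comprised 7 alpha subunits, 4 structural and 3 catalytic beta subunits, 6 ATPases, 3 base subunits without ATPase activity and 8 lid subunits. A gene had up to 8 probe sets, 21 genes had a single probe set, and 7 member probe sets were annotated to several symbols. For each gene 1 main probe set was used, annotated to that gene alone (the pseudogene excepted) and preferably without the suffix _x_at, _s_at or _a_at. For 11 genes this main probe set was not the brightest of the gene. Some were much dimmer: the wildtype mean was 5.30 for Psmc6 against 9.97 for its brightest probe set. For Psmb1 it was 6.68 against 11.34.

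The promoter windows of a representative of each class, and of Psma6, are given because the classes are known for different inputs: antioxidant response elements (core TGACNNNGC) for constitutive subunits and interferon elements (core GAAANNGAA) for the immune subunits. Each window runs from 250 bases before to 50 bases after the annotated start, on RefSeq GRCm38.p6, written 5′ to 3′ on the gene's strand. Capitals mark a match on either strand to these cores, to the cyclic AMP element TGACGTCA or to the NF-Y box CCAAT; searched letters of different motifs may overlap.
Psmb5, chr14:54617946-54618245, minus strand: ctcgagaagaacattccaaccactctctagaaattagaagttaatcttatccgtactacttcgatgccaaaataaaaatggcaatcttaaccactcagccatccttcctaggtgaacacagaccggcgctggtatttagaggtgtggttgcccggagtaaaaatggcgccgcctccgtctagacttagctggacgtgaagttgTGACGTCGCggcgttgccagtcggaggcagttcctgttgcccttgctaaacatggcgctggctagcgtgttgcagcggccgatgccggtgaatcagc
Psmb8, chr17:34197945-34198244, plus strand: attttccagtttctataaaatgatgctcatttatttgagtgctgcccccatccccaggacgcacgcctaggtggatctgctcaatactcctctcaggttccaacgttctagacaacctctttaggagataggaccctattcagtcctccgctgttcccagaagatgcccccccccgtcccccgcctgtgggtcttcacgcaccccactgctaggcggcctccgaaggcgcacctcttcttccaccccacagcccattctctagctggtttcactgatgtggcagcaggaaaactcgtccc
Psme1, chr14:55578244-55578543, plus strand: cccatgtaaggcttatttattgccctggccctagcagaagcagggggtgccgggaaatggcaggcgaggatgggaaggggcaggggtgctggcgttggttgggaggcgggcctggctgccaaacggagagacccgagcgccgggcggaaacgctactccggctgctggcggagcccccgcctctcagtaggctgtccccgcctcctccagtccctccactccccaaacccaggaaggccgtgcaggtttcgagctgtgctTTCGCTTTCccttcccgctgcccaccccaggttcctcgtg
Psme4, chr11:30771525-30771824, plus strand: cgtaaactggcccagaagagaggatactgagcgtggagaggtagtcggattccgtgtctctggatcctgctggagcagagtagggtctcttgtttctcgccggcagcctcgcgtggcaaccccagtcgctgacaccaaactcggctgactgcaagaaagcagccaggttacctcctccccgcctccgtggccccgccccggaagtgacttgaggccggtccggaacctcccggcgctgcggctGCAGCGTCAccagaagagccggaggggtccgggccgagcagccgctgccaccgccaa
Psma6, chr12:55383972-55384271, plus strand: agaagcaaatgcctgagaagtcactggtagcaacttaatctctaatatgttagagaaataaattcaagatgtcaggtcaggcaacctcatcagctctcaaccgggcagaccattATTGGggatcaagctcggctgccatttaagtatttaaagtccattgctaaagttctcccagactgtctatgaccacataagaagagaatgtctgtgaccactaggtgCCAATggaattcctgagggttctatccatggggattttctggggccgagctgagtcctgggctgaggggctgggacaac

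The Psmb5 window held the antioxidant core on the gene's strand, the Psme4 window held it on the opposite strand, and the Psme1 window held the interferon core on the opposite strand. The Psma6 window shown, 1 of 2 for this gene, held the NF-Y box on both strands, and the other Psma6 window held none of the searched motifs. The Psmb8 window held none of the searched motifs. Of 43 genes looked up, 36 had a window in the table, and they had 39 windows. The antioxidant core was present in 6 of 39 member windows (15.4%), those of Psmb5, Psmb6, Psmc6, Psmd12, Psmd9 and Psme4, and in 12.4% of all 32851 windows. The interferon core was present in 6 of 39 (15.4%), those of Psmb3, Psmb4, Psmc2, Psmd4, Psmd9 and Psme1, and in 8.56% of all windows. Neither core occurred in the windows of the 3 immune subunits. The NF-Y box was in 14 of 39 member windows (35.9%) and 37.4% of all, and the cyclic AMP element in 0 of 39 and 1.79% of all. These are counts of letters in short windows and were not tested.

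Before the expression results, the arrays wildtype 7 and mutant 8 need mention, because they stand apart from the other 6 arrays in their expression values as a whole. All 12 spermatid markers were measured, and 11 of 12 (all but Oaz3) were above the other 6 arrays on both. The log2 of their summed level was 14.76 on wildtype 7 and 14.26 on mutant 8, against 12.24 to 12.95 on the other 6. Of 7 fat cell markers 6 were measured, with a summed log2 level of 11.07 and 11.14 against 8.54 to 9.37. The log2 difference between the 3′ and 5′ Gapdh control probe sets was 0.31 and 0.33 against 0.04 to 0.22. For Actb it was 1.13 on wildtype 7 and 1.03 on mutant 8 against 0.75 to 1.03, so that mutant 8 lay within the range of the others. Of 9 spermatocyte markers measured (of 10), 3 were above the other 6 arrays on both, namely Sycp2 (by 0.44 and 0.25 against their own genotype), Pgk2 (0.29 and 0.30) and Syce1 (0.11 and 0.12). The summed log2 level of the list was 15.79 on wildtype 7 and 15.71 on mutant 8 against 15.63 to 15.73, a sum carried by its brightest genes. The median of all probe sets lay between 6.40 and 6.45 on every array. As these arrays belong to different genotypes, the class medians of the constitutive, immune, PA28 alpha beta and germ cell genes and the differences of the members fixed by role are also given without them. In bulk RNA, fewer cells of a type and less RNA per cell cannot be told apart.

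The genotype comparison asked whether loss of CTCFL altered the proteasome transcripts. In limma fitted to all probe sets, 0 of 91 members had a Benjamini-Hochberg adjusted p under 0.05, as was the case for 0% of all probe sets, and a one-way test without shared variance also called 0 members. At an unadjusted p under 0.05, 1 member was higher in the mutant, beside 1.76% of all probe sets, and 1 was lower, beside 1.70%. No member had all 3 mutant arrays above all 5 wildtype arrays, which 1.38% of all probe sets showed, and 1 member had them all below, which 1.31% showed. The members' counts were therefore at or below these shares.

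For the 44 main probe sets, the 95% interval of the difference had a median half-width of 0.17 on the log2 scale and a widest of 0.35. All 44 intervals included 0 and all 44 lay within 0.5 either side of it. This held for the main probe sets only, as some other probe sets had intervals reaching further. The brightest Psmc4 probe set, with a wildtype mean of 10.67, differed by -0.26 (95% interval -0.61 to 0.08). A second Psmb4 probe set, with a wildtype mean of 11.52, differed by -0.26 (95% interval -0.53 to 0.01). The plot of genotype differences shows the intervals of the main probe sets gene by gene.

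**Figure D1:**
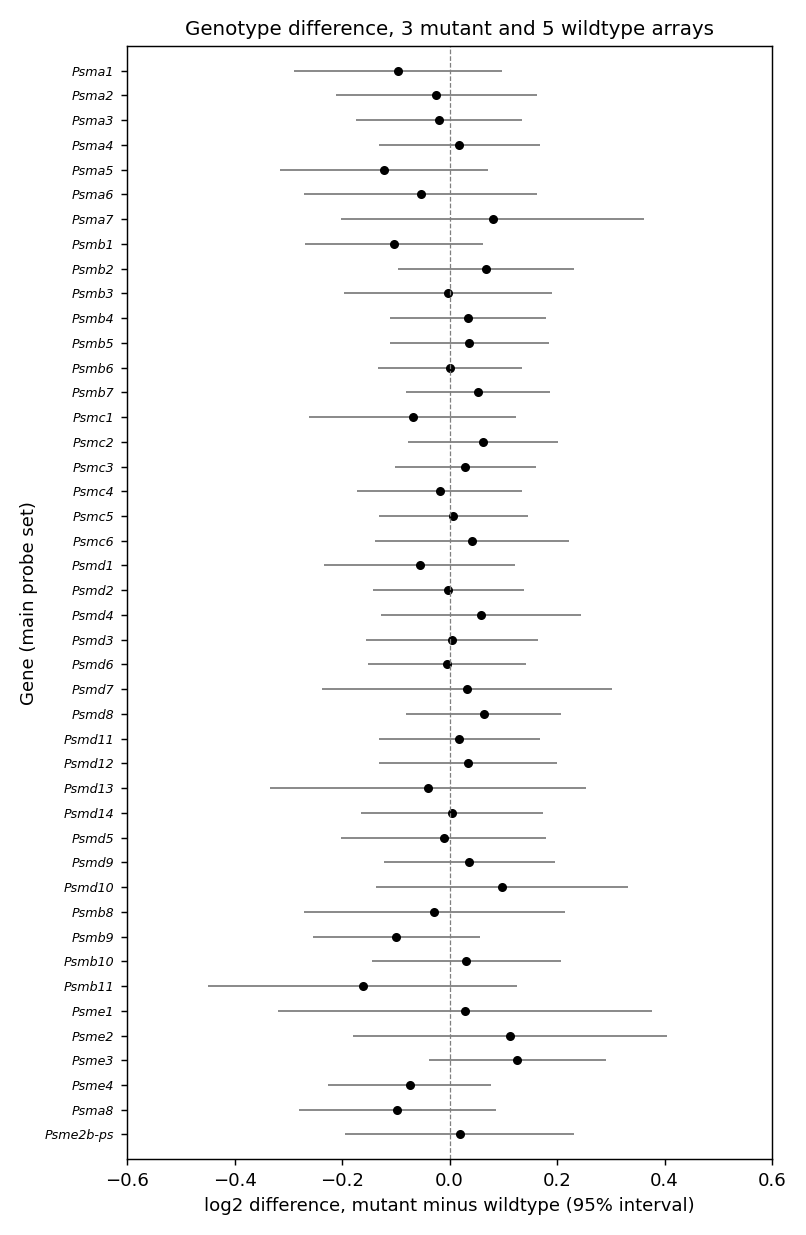
Log2 difference between 3 mutant and 5 wildtype arrays (horizontal axis, mutant minus wildtype) for the main probe set of each of 44 genes (vertical axis); points are limma estimates and lines their 95% intervals. All 44 lines cross 0 and stay within 0.5 of it.

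On their main probe sets the constitutive genes had a median log2 difference, mutant minus wildtype, of 0.0049, with a range from -0.12 to 0.08. Of the 31, 18 were higher and 13 lower by their means, and none passed the test. Over all probe sets the median was 0.0032. Without wildtype 7 and mutant 8 the constitutive median was 0.03. The medians of the subcomplexes were -0.02 for the alpha subunits, 0.02 for the structural and 0.04 for the catalytic beta subunits, 0.02 for the ATPases, -0.0024 for the other base subunits and 0.01 for the lid. For constitutive main probe sets the median distance from the lowest to the highest of the 8 arrays was 0.22 on the log2 scale, against 0.36 for all probe sets above the median mean level. These sets were not matched for level, so the smaller spread cannot be read as particular to proteasome genes.

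Psmb5, the chymotrypsin-like catalytic subunit, had log2 levels of 11.50, 11.49, 11.47, 11.48 and 11.35 on wildtype arrays 1, 2, 4, 6 and 7. On mutant arrays 3, 5 and 8 the levels were 11.53, 11.54 and 11.41. The groups overlapped, with wildtype 7 the lowest array and mutant 8 the next, and the difference was 0.04 ± 0.07 (SE; exact two-sided permutation p = 0.536).

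Psmb6, the caspase-like catalytic subunit, lay at 12.23, 12.21, 12.12, 12.18 and 12.15 on the wildtype arrays and at 12.18, 12.20 and 12.15 on the mutant arrays. Psmb7, the trypsin-like catalytic subunit, lay at 12.35, 12.29, 12.25, 12.26 and 12.23 on the wildtype arrays and at 12.29, 12.36 and 12.33 on the mutant arrays. For both genes the mutant values fell among or close to the wildtype values, with exact permutation p of 1.0 and 0.179. From the lowest to the highest of the 8 arrays Psmb5, Psmb6 and Psmb7 spanned only 0.19, 0.11 and 0.13 log2 units. Without wildtype 7 and mutant 8 their differences were 0.05, 0.0088 and 0.04.

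None of the immune subunits, which replace those 3 in cells under interferon gamma, passed the genotype test, and no test compared the classes. Their median difference was -0.03, with 1 of 3 higher and 2 lower. Psmb8 and Psmb9 had wildtype means of 6.66 and 6.70, close to the arrays' medians of 6.40 to 6.45. Psmb8 had log2 levels of 6.84, 6.76, 6.63, 6.73 and 6.36 on the wildtype arrays and 6.71, 6.52 and 6.67 on the mutant arrays. The mutant arrays lay inside the wildtype range, which wildtype 7 extended downwards, and the difference was -0.03 ± 0.11 (SE; exact permutation p = 0.786).

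Psmb9 had levels of 6.74, 6.61, 6.79, 6.78 and 6.60 on the wildtype arrays and 6.61, 6.60 and 6.60 on the mutant arrays. The 3 mutant values were at the low end of the wildtype values and overlapped those of wildtype 2 and 7, with a difference of -0.10 ± 0.07 (SE; exact permutation p = 0.143). Psmb10 had levels of 7.42, 7.39, 7.27, 7.36 and 7.30 on the wildtype arrays and 7.52, 7.38 and 7.23 on the mutant arrays, so that mutant arrays were both the highest and the lowest. Without wildtype 7 and mutant 8 the differences were -0.13 for Psmb8, -0.13 for Psmb9 and 0.09 for Psmb10, and the median of the 3 was -0.13.

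Other genes of interferon signalling and antigen presentation, 16 of 17 on a fixed list with a probe set, had a median difference of -0.0064, and 0 of 16 passed in either direction at an adjusted or an unadjusted p under 0.05. Among them were differences of -0.13 ± 0.15 (SE) for H2-D1, a class I antigen-presenting molecule, and 0.09 ± 0.08 (SE) for Tap1, a peptide transporter subunit. The log2 of the list's summed level was between 11.99 and 12.16 on all arrays. That of 12 leukocyte markers was between 10.88 and 11.34, although single markers ranged further, H2-Aa from 4.84 to 7.05 and Cd52 from 5.06 to 7.09. Among these markers 0 of 12 passed at an adjusted p, while the class II antigen-presenting gene H2-Ab1 was lower in the mutant at an unadjusted p under 0.05 (-0.39 ± 0.13, SE). The other class II gene, H2-Aa, differed by -0.70 ± 0.36 (SE).

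PA28 alpha beta was the class with the widest spread between arrays, and the spread lay within the mutant group. Psme1, the alpha subunit, had log2 levels of 9.30, 9.47, 9.25, 9.30 and 9.16 on the wildtype arrays and 9.68, 9.42 and 8.87 on the mutant arrays. The highest and the lowest of the 8 values were thus both mutant. The difference was 0.03 ± 0.16 (SE; exact permutation p = 0.893), with a 95% interval from -0.32 to 0.38.

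Psme2, the beta subunit, followed with 9.09, 9.01, 8.90, 8.99 and 8.80 on the wildtype arrays and 9.26, 9.25 and 8.70 on the mutant arrays. Mutant 3 and 5 were above every wildtype array and mutant 8 below every one, and the difference was 0.11 ± 0.13 (SE; exact permutation p = 0.50). Mutant 8 was below mutant 3 and 5 by 0.68 for Psme1 and 0.56 for Psme2, which is more than the whole range of the wildtype arrays. The median of the 2 differences was 0.07 and rested on single mutant arrays: it was -0.07 without mutant 3, 0.0021 without mutant 5 and 0.28 without mutant 8. Without both wildtype 7 and mutant 8 it was 0.24, with 0.22 for Psme1 and 0.26 for Psme2. For Psme2 alone leaving out 1 array gave 0.02 (without mutant 3) to 0.30 (without mutant 8).

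The nuclear activator Psme3 forms a ring of its own and promotes degradation of proteins by the core without ubiquitin. It had levels of 8.94, 8.80, 8.73, 8.80 and 8.94 on the wildtype arrays and 8.89, 9.04 and 8.98 on the mutant arrays. The difference was 0.13 ± 0.07 (SE; exact permutation p = 0.143), with mutant 5 and 8 above the wildtype arrays and mutant 3 among them. Its 3 probe sets did not run the same way, with differences from -0.09 to 0.22. The negative one, 1438509_at, had a wildtype mean of 4.56, below the arrays' medians. The others, with wildtype means of 8.69 and 8.84, were higher in the mutant by 0.22 and 0.13. Without wildtype 7 and mutant 8 the main probe set differed by 0.14.

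The germ cell genes had a median difference of -0.09, both lower by their means and neither past the test. Over all 7 probe sets of these genes the median was -0.0079. Psma8, the meiotic alpha subunit, had log2 levels of 12.06, 11.98, 11.86, 11.82 and 11.99 on the wildtype arrays and 11.75, 11.80 and 11.98 on the mutant arrays. Mutant 3 and 5 were below every wildtype array while mutant 8 was among the higher ones, and the difference was -0.10 ± 0.08 (SE; exact permutation p = 0.179). Without wildtype 7 and mutant 8 the difference of Psma8 was -0.15 and the median of the class -0.11.

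Psma7, the subunit that Psma8 stands in for, had levels of 9.95, 9.95, 9.66, 9.73 and 9.65 on the wildtype arrays and 10.05, 10.00 and 9.56 on the mutant arrays. Here mutant 3 and 5 were the highest of the 8 arrays and mutant 8 the lowest, the opposite order to Psma8 in the mutant group. Among the wildtype arrays, 1 and 2 were above 4 and 6 for both genes, while wildtype 7 was high for Psma8 and low for Psma7. The low value of wildtype 7 depended on the probe set. On the brighter second probe set of Psma7, wildtype 7 was at 10.28, above wildtype 4 and 6 at 10.17 and 10.13. Mutant 8 was again lowest there and mutant 3 highest, while mutant 5 (10.43) was just below wildtype 2 (10.44). The difference of the main probe set was 0.08 ± 0.13 (SE; exact permutation p = 0.679), and 0.20 without wildtype 7 and mutant 8.

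Psme4, the PA200 activator linked to histone removal in spermatids, had levels of 11.91, 11.91, 11.96, 11.99 and 12.08 on the wildtype arrays and 11.82, 11.93 and 11.94 on the mutant arrays. The groups overlapped, and the difference was -0.07 ± 0.07 (SE; exact permutation p = 0.214), and -0.07 also without wildtype 7 and mutant 8. Its 6 probe sets differed from -0.07 to 0.14, so the sign depended on the probe set. The positive differences were those of dim probe sets, with wildtype means of 5.95, 6.45 and 6.83. The probe sets with wildtype means of 11.34, 11.97 and 12.45 differed by -0.0079, -0.07 and -0.06. Psmb11, the thymus subunit, had levels of 4.26, 4.04, 4.58, 4.45 and 4.44 on the wildtype arrays and 4.13, 4.04 and 4.40 on the mutant arrays, all below the arrays' medians, with a difference of -0.16 on all arrays and -0.25 without wildtype 7 and mutant 8.

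**Figure D2:**
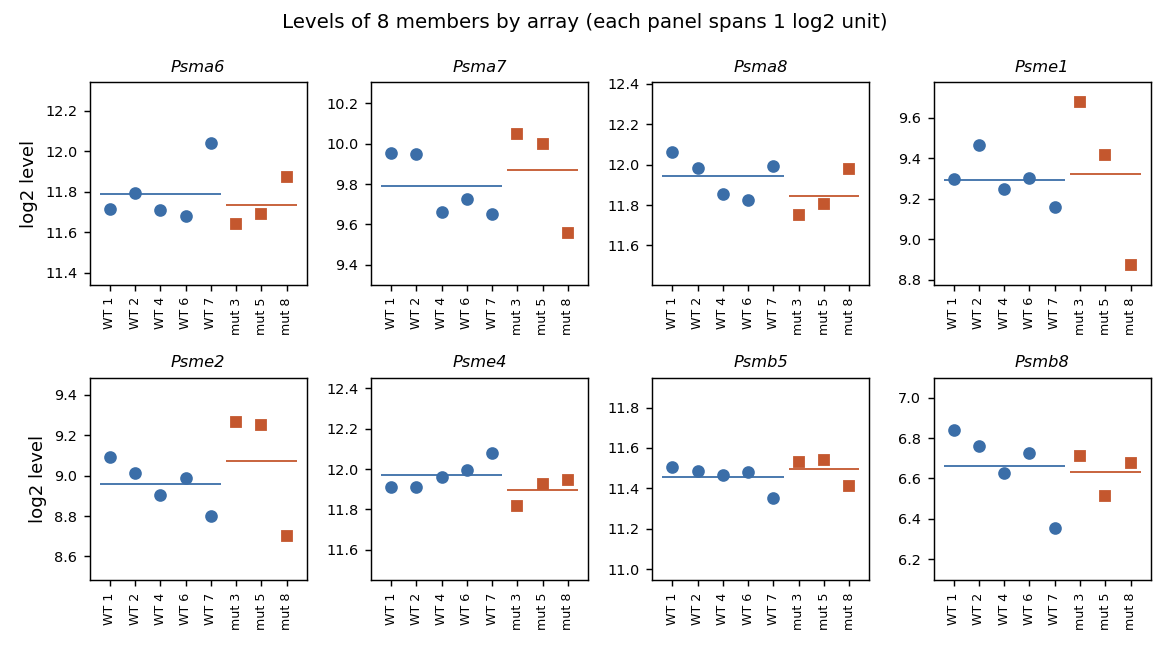
Log2 level (vertical axis) of the main probe set of 8 genes on each array (horizontal axis); circles are wildtype and squares mutant arrays, lines are group means and every panel spans 1 log2 unit. Psme1, Psme2 and Psma7 are lowest on mutant 8, and Psma6 is highest on wildtype 7 and mutant 8.

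The members with an unadjusted p under 0.05 were both probe sets annotated to several symbols. For Psma5, an alpha subunit, the probe set 1454940_at had levels of 4.40, 4.43, 4.49, 4.57 and 4.38 on the wildtype arrays and 4.78, 4.64 and 4.50 on the mutant arrays. The difference was 0.19 ± 0.08 (SE; limma adjusted p = 1.0; exact permutation p = 0.0714), and mutant 8 overlapped the wildtype arrays. The main probe set of Psma5 differed by -0.12, in the other direction.

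For the lid subunit Psmd11, the probe set 1432727_at had levels of 6.17, 6.03, 6.18, 6.22 and 6.31 on the wildtype arrays and 6.03, 6.02 and 5.98 on the mutant arrays. The difference was -0.17 ± 0.07 (SE; limma adjusted p = 1.0), and this was the member without overlap, at the smallest exact p that 56 splits allow, 0.0357. The other 7 probe sets of Psmd11 differed by -0.07 to 0.12, and its main probe set by 0.02.

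Genes around the proteasome that are no members gave the same picture. Of 26 assembly factors, regulators and ubiquitin shuttles on a fixed list, 25 were measured, with a median difference of 0.02. By their means 17 were higher and 8 lower, and 0 of 25 passed in either direction at an adjusted or unadjusted p under 0.05. Among them was a difference of 0.07 ± 0.07 (SE) for Txnl1, a thioredoxin bound to the cap.

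The members were then followed on wildtype 7 and mutant 8, each set against the other arrays of its own genotype. These arrays were singled out by expression values, so the following is a description without tests. Of the 31 constitutive genes, 23 (74.2%) were lower on both, against 34.6% of all probe sets and 40.0% of those above the median mean level. The median departure was -0.07 on wildtype 7 and -0.09 on mutant 8. Over all probe sets it was -0.04 and -0.0021, and over those above the median mean level -0.02 and -0.05. The sign of single small departures depended on scaling: with each array centred on its median, 16 of 31 were lower on both. With repeated quantile normalisation 19 of 31 were. The share of all probe sets lower on both is not given for these scalings, so no excess can be read from these counts.

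On both arrays 11 of the 31 constitutive main probe sets (35.5%) lay below all other 6 arrays as deposited, while with median centring 4 of 31 did (12.9%). The share of all probe sets was 10.3% as deposited and 7.47% with median centring. Among probe sets above the median mean level it was 14.0% and 9.98%. The 4 that were below in both scalings were Psmb5, the base scaffold Psmd1, the ubiquitin receptor Psmd4 and the lid subunit Psmd7. The other 7 were Psma2, Psma4, Psma7, Psmb3, Psmc1, Psmd11 and Psmd14. With the brightest probe set of each gene, chosen after seeing the data, 9 of 31 (29.0%) were below on both as deposited. Psma7, Psmb3 and Psmd11 were then not among them, while Psmd13 was. For the main probe sets a repeated quantile normalisation left the count at 11 of 31 (35.5%), of which 10 were shared with the deposited values. Under it the share of all probe sets was 10.7%, and 15.2% among those above the median mean level.

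Psmd7, a scaffold of the lid, had log2 levels of 10.15, 10.10, 10.06, 10.05 and 9.88 on the wildtype arrays and 10.21, 10.28 and 9.75 on the mutant arrays. Wildtype 7 and mutant 8 were the lowest of the 8, by 0.21 and 0.50 against their own genotype. Psmd5, a chaperone of cap assembly, had levels of 8.99, 9.02, 8.89, 8.89 and 8.74 on the wildtype arrays and 8.99, 8.94 and 8.75 on the mutant arrays, again with these arrays lowest, as they were under median centring.

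Psme1 and Psme2 were also below the other 6 arrays on both, under either scaling. Their median departure was -0.18 on wildtype 7 and -0.62 on mutant 8, the latter larger than that of any constitutive gene, of which Psmd7 (-0.50) and Psma7 (-0.46) came nearest. Of the immune subunits, Psmb10 was also lowest on mutant 8, with a departure of -0.22, while Psmb8 departed by 0.06 and Psmb9 by -0.0033 there. On wildtype 7 Psmb8 departed by -0.38. Beside these values, the leukocyte markers that departed furthest on mutant 8 were Cd52, by 1.70, and C1qb and Cd68, by -0.88 and -0.87. The summed log2 level of all 12 leukocyte markers was 10.88 there and 10.98 on wildtype 7, against 10.92 to 11.34 on the others. The part of leukocytes in the PA28 values was not tested.

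**Figure D3:**
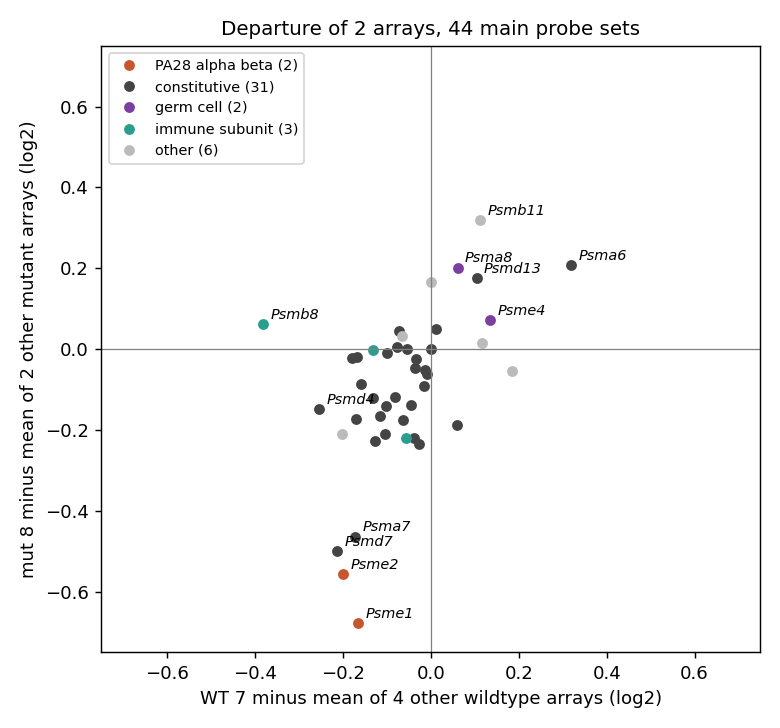
Departure in log2 of wildtype 7 from the mean of the other 4 wildtype arrays (horizontal axis) and of mutant 8 from the mean of the other 2 mutant arrays (vertical axis), for 44 main probe sets coloured by class. Most constitutive genes sit slightly below 0 on both axes; Psme1 and Psme2 lie lowest on mutant 8, at -0.68 and -0.56, and Psma6 lies apart at the upper right, at 0.32 and 0.21.

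Psma6, an alpha subunit of every core, went the other way. Its log2 levels were 11.72, 11.79, 11.71, 11.68 and 12.04 on the wildtype arrays and 11.64, 11.69 and 11.87 on the mutant arrays. Wildtype 7 and mutant 8 were the highest of the 8, by 0.32 and 0.21 against their own genotype. All 4 Psma6 probe sets had both arrays above the other 6, and no other main probe set did. Among all 91 members 5 did (5.49%), beside 8.60% of all probe sets and 11.6% of those above the median mean level. The remaining one, departing by 0.08 and 0.06, was the brightest probe set of the ATPase Psmc2, but not its main one. With median centring Psma6 was still the only main probe set above on both.

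The germ cell genes were higher than the rest of their genotype on both arrays, Psma8 by 0.06 and 0.20 and Psme4 by 0.14 and 0.07. Over all 7 germ cell probe sets the medians were -0.0047 and -0.01, since 4 of the other 5 Psme4 probe sets were lower on both arrays. Those 4 had wildtype means of 5.95, 6.45, 6.83 and 11.34, so most of them were dim. The one at 11.34 departed by only -0.0047 on wildtype 7 and by -0.07 on mutant 8. The brightest Psme4 probe set, with a wildtype mean of 12.45, was higher on both arrays, by 0.10 and 0.06, as the main probe set was. The spermatid markers had median departures of 1.39 and 1.60 on the same arrays. Also among the larger positive departures were Psmb11, at 0.11 and 0.32, and the main probe set of the lid subunit Psmd13, at 0.10 and 0.18. The probe sets of Psmd13 disagreed, as 2 of the other 3 lay below the other 6 arrays on both, at -0.37 and -0.26 and at -0.21 and -0.25. The first of these was the brightest probe set of the gene. The part of spermatid number in these departures was not tested.

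**Figure D4:**
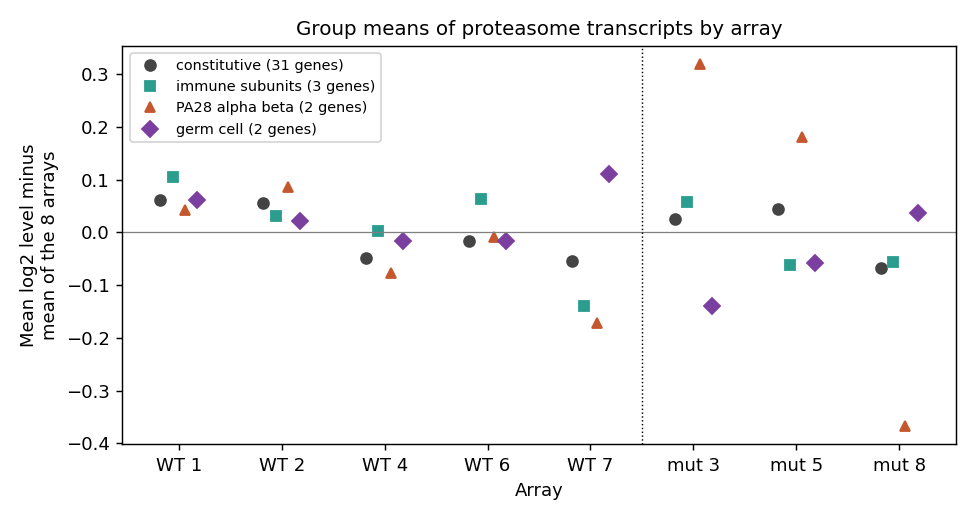
Mean over the genes of a class (vertical axis) of the log2 level minus its mean over the 8 arrays, for each array (horizontal axis); the dotted line separates wildtype from mutant arrays. PA28 alpha beta runs from 0.32 on mutant 3 to -0.37 on mutant 8, while the constitutive class stays between -0.07 and 0.06.

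Of the 25 measured assembly factors and regulators, 3 (12.0%) were above and 6 (24.0%) below the other 6 arrays on both, beside 8.60% and 10.3% of all probe sets and 11.6% and 14.0% of those above the median mean level. Above were Psmf1 (PI31, at 0.31 and 0.35), the shuttle factor Rad23b (0.41 and 0.35) and Ubqln4 (0.42 and 0.39). The furthest below was Ecpas, the scaffold that holds core and cap together (-0.59 and -0.47). The map of all genes shows these patterns for the members array by array.

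**Figure D5:**
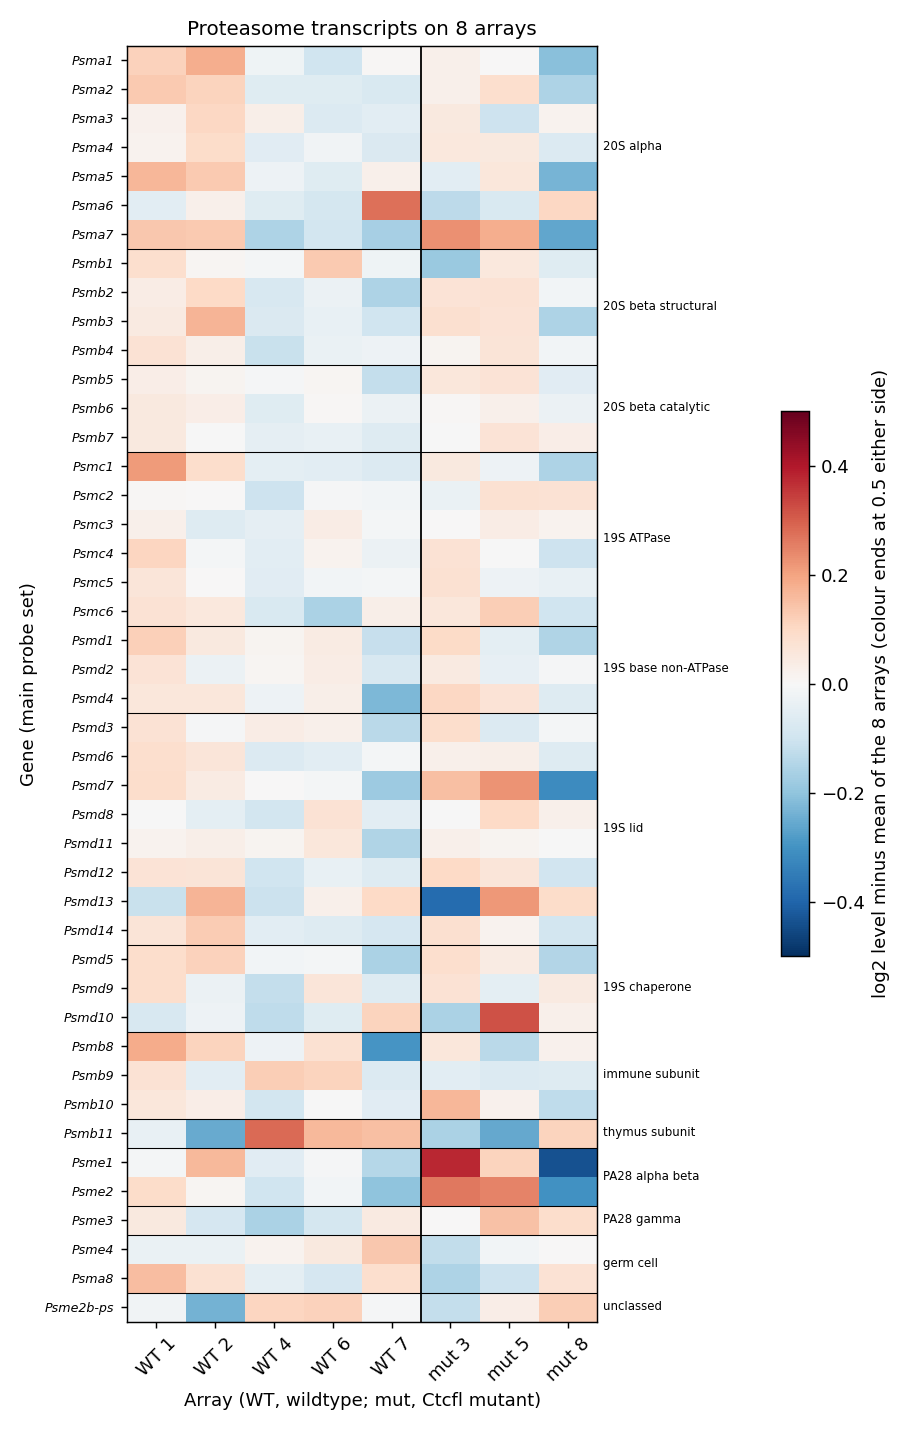
Log2 level minus the gene's mean over the 8 arrays (colour, ending at 0.5 either side) for the main probe set of 44 genes (rows, grouped by class) on 5 wildtype and 3 mutant arrays (columns). Most cells are pale, and among the strongest colours are Psme1 and Psme2 on the mutant arrays, Psmd7 on mutant 8, Psmd13 on mutant 3, Psmd10 on mutant 5, and Psma6 and Psmb8 on wildtype 7.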

How the data were processed

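Log2 levels deposited by the authors were used, 1 column per array for 45101 Affymetrix Mouse430_2 probe sets. According to the labels and the study's methods the authors applied RMA background correction and quantile normalisation to 8 testis arrays of postnatal day 23; tool versions are not given in the sources used here. Arrays hold no read depth, and their number limits the precision. Groups followed the labels. Columns and tables holding the authors' own fold changes, p-values and ANOVA results were not used, apart from the symbols beside the levels.

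Genotype was tested with limma 3.58.1 in R 4.3.3 (lmFit and eBayes, no covariate, all probe sets, Benjamini-Hochberg) and, for single probe sets, with an exact two-sided permutation of the 8 labels; the fit was checked on simulated data. Classes were described by medians and counts. Promoter motifs were searched with Python 3.11.15 and figures drawn with matplotlib 3.10.9. The members and lists were chosen with earlier results of these data known.

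Named genes were those fixed by role (Psma8 and Psma7, the immune and catalytic beta subunits, Psmb11, Psme1 to Psme4), members at an unadjusted p under 0.05, the 5 highest and 5 lowest mean departures of wildtype 7 and mutant 8, and genes whose probe sets differ in sign by over 0.3; up to 3 genes per other list, some of which are not reported here. Psmd1, Psmd4, H2-Aa, H2-Ab1 and the genes listed by count were named after their values were seen. Alternatives were leaving out each array or both set-apart arrays, these arrays as a block, median centring, repeated quantile normalisation, probe sets above the median level, a trended robust prior, array weights, a one-way test, and other probe set choices. Gene symbols are those of the deposited table, and 7 member genes had no promoter window in the table used.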

Additional observations from a re-analysis of the deposited data

Results flagged for a closer look

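Of 27 measures examined over the 5 wildtype arrays, 1 had an extreme array: Psmb5 was at 11.35 on wildtype 7, and the nearest other wildtype array was at 11.47, a gap of 0.759 times the group's range by Dixon's criterion. Chance alone would give 1.35 such arrays among 27 measures.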

How the results depend on the processing

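No paired analysis was possible because the labels name no litter and the genotypes share no replicate number. The study's text calls the compared mice littermates, so any effect of litter was left out of the fit. The count of members with an adjusted p under 0.05 was 0 in all 19 alternatives. The single member higher at an unadjusted p under 0.05 became 2 without both set-apart arrays and 0 among probe sets above the median level, with a trended robust prior, with main or with brightest probe sets; leaving out 1 array gave 0 to 4, with 4 without mutant 8 and 0 without mutant 3, mutant 5 or wildtype 2, 4 or 7. The single lower member became 2 with the set-apart arrays as a block and 0 with array weights, without both set-apart arrays, above the median level, and with main or with brightest probe sets; leaving out 1 array gave 0 to 3, with 3 without mutant 3 and 0 without mutant 8 or wildtype 1, 4 or 7. The cause was not tested. The immune median difference moved to -0.13 without both set-apart arrays. Over all probe sets of the class the germ cell median difference was -0.0079, and its departures were -0.0047 on wildtype 7 and -0.011 on mutant 8. With the brightest probe set of each gene, chosen after seeing the data, these values were -0.080, 0.082 and 0.13. The 11 of 31 constitutive genes below on both arrays (35.5%) became 4 with median centring (12.9%). Counting all 67 constitutive probe sets gave 19 (28.4%). The share of all probe sets was 10.3% as deposited and 7.47% with median centring. Both alternatives were chosen after seeing the data.

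Differences that changed sign were small and none passed the test. Leaving out 1 array gave -0.0095 (without mutant 3) to 0.23 (without mutant 8) for Psma7, -0.042 (without mutant 3) to 0.10 (without mutant 8) for Psmb10 and -0.15 (without mutant 3) to 0.25 (without mutant 8) for Psme1, which was also -0.019 without mutant 5 and -0.0048 without wildtype 7. It gave -0.10 (without wildtype 7) to 0.030 (without mutant 5) for Psmb8, also 0.016 without wildtype 1. For Psmb6 the range was -0.014 (without wildtype 4) to 0.016 (without mutant 8), and -0.0034 was found with median centring. Second probe sets gave 0.045 for Psmb8, -0.090 for Psme3, and 0.048, 0.14 and 0.032 for Psme4. All of these were dimmer than the main probe set of their gene.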
